A study of Mus musculus with 12 samples.

Results

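The machinery that copies DNA in S phase was followed through 31 genes in fibroblasts cultured from mouse embryos and given 1 of 2 plant flavones. The genes were listed by name for their role in licensing, unwinding or copying DNA, joining its fragments, supplying its nucleotides or controlling these steps, and all 31 were found among 24458 genes. Cells were kept in control medium, in apigenin at 50 µM or in chrysin at 50 µM for 24 h, with 4 RNA sequencing libraries in each group. The compounds differ by a B-ring hydroxyl, present in apigenin and absent from chrysin. Per the labels, the cells were taken no further than passage 5, after which they grow slowly. The labels name neither the mouse strain nor any solvent in the control medium, so an effect of solvent cannot be told apart from one of the flavones in comparisons with untreated cells.

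Before a cell copies its DNA, the origin recognition complex together with CDC6 and CDT1 loads the MCM helicase onto origins, which is called licensing. In S phase CDC45 and the GINS complex turn the loaded MCM ring into an active helicase, with MCM10 helping it to start. Polymerase alpha with primase then lays down primers, replication factor C (the RFC genes) loads the sliding clamp PCNA, and polymerases delta and epsilon extend the new strands. FEN1 and LIG1 trim and join the fragments of the lagging strand, while ribonucleotide reductase, thymidylate synthase and thymidine kinase supply the building blocks. Transcription factors of the E2F family switch on many of these genes as cells pass from G1 into S phase, and dividing fibroblasts in culture express them.

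Levels are log2 of the normalized read count plus 1, as deposited. Recovered totals ran from 4298640 to 15512633 reads per library, and a count of 3 reads, the limit that a count of 0 allows, stood at a normalized count of 1.44 to 6.24, counting error only. The 11 fibroblast markers were all present, with summed normalized counts of 237017 to 252653 in untreated, 163564 to 186416 in apigenin and 197181 to 251416 in chrysin libraries. The 6 macrophage markers summed to 991 to 1145 in untreated, 1490 to 1896 in apigenin and 866 to 984 in chrysin libraries, the 4 pericyte and smooth muscle markers to 1832 to 1961, 735 to 1324 and 1940 to 2473, and the 3 neural markers to 545 to 581, 497 to 898 and 986 to 1159. The 4 endothelial markers summed to 72.0 to 85.4, 13.4 to 23.2 and 15.3 to 46.9, and Cdh5 was at 0 in every apigenin library. The 4 epithelial markers reached no more than 17.1 in any library, with Krt8 at 0 in the untreated and chrysin libraries and Cdh1 at 0 in the apigenin libraries. The 2 pluripotency markers reached no more than 5.02, with Pou5f1 at 0 in every library. These sums move with the treatment groups, and single markers within a sum moved in opposite directions. At similar recovered totals, untreated replicate 4 and chrysin replicate 1 held 160187 and 240700 reads of Fn1 and 24135 and 3059 of Col3a1. Of the neural markers, the same libraries held 654 and 1733 reads of Nes and 203 and 33 of Tubb3. The part of these markers in the results below was not tested. A difference at an adjusted p under 0.05 in limma, over the 12198 genes averaging 10 or more normalized counts, was called a rise or a fall, and errors are standard errors unless SD is named. In bulk RNA, fewer cells in S phase and less RNA per cell cannot be told apart.

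Promoters of 4 of the genes that rose with chrysin are shown, from 250 bases before to 50 bases after the RefSeq start in the build GRCm38.p6, each read 5′ to 3′ on the gene's strand. Capitals mark E2F-type letters (TTTCCCGC, TTTCGCGC, TTTGCCGC or TTTGGCGC) and the letters CCAAT, each on either strand. The Cdt1 promoter lies at chr8:122567765-122568064 on the plus strand, that of Mcm2 at chr6:88898731-88899030 on the minus strand, that of Rrm2 at chr12:24708004-24708303 on the plus strand and that of Mcm3 at chr1:20820263-20820562 on the minus strand. The first 3 had the smallest chrysin p of their roles, and Mcm3 was added after its values and promoter had been seen because it holds both kinds of letters. The same rule chose Rfc1, among the polymerase, clamp and loader genes, and E2f1. Their windows are not printed, and neither held an E2F-type match. The letters of the E2f1 window read in part as coding sequence of the gene, so its RefSeq start appears to be an internal one. Sequence further upstream was not searched, so the lack of a match in this window does not describe the upstream promoter of E2f1.
Cdt1: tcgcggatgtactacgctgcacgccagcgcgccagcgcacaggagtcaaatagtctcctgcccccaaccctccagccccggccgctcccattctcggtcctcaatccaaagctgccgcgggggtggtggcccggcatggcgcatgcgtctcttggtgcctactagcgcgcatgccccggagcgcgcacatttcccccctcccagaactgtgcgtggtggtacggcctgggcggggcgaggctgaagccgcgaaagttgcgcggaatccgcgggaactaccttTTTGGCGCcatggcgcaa
Mcm2: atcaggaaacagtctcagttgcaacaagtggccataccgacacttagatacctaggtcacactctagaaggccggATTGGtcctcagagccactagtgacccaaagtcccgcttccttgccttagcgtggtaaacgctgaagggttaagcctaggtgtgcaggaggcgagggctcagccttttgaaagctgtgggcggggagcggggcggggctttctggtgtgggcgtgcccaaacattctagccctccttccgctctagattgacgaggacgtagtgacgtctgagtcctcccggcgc
Rrm2: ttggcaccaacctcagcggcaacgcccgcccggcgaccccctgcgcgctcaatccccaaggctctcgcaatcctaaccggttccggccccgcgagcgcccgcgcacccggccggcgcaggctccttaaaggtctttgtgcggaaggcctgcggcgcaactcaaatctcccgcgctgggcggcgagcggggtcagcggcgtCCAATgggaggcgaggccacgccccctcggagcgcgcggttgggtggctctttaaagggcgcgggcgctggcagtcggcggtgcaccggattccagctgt
Mcm3: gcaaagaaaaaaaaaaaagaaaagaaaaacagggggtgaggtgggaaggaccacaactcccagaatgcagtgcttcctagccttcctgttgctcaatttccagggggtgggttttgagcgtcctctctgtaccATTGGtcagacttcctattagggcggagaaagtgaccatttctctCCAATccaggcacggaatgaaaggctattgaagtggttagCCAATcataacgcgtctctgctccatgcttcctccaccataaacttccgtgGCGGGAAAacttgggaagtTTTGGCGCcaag
The Cdt1 promoter holds 1 E2F-type match and no CCAAT, and the Mcm3 promoter holds 2 E2F-type and 3 CCAAT matches. The Mcm2 and Rrm2 promoters hold 1 CCAAT match each and no E2F-type match in this window. Of the 31 genes, 26 had a promoter in the RefSeq table (not Rfc2, Gins1, Gins2, Mcm4 and Pole), and 11 of these 26 (42.3%) held E2F-type letters: Cdc6, Cdt1, Gins3, Lig1, Mcm3, Mcm5, Mcm6, Mcm7, Pola1, Pold1 and Rfc3. The share was 36.2% of 47 other replication pathway genes, 4.79% of 9751 genes tested and 2.6% of all 27025 genes with a promoter. CCAAT was held by 57.7% of the replication genes and 43.1% of the genes tested, at a median GC content of 58.8% and 61.3%. With chrysin, 3 of the 11 genes with E2F-type letters rose and 6 of the 15 without them, where 26.3% of all genes tested rose. E2f1 is counted among the 15 on the window described above, and the other windows also depend on the RefSeq start used. A match is a description of letters and not of binding.

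In untreated fibroblasts the genes spanned a wide range of levels per kilobase of exon. The length was the union of all annotated exons of a gene, which can exceed that of a single transcript. Levels per kilobase and their order therefore depend on the annotation. Rrm2 and Rrm1, the small and large subunits of ribonucleotide reductase, stood highest, at 154 ± 6.60 and 131 ± 5.58 normalized counts per kilobase (SD, n = 4). Pcna followed at 118 ± 16.4, E2f1 at 104 ± 6.14 and Rfc2 at 100.3 ± 8.83 normalized counts per kilobase. The ranges of Rrm2 and Rrm1 did not overlap, while those of Rrm1 and Pcna, of Pcna and E2f1, and of E2f1 and Rfc2 did. The helicase subunit genes Mcm2 to Mcm7 lay between 24.4 and 70.9 normalized counts per kilobase, and Tk1, Gins1, Cdc6 and Mcm10 lay lowest, at 3.75, 3.65, 2.86 and 1.85. Cdc6 rested on 6 to 30 reads per library, Tk1 on 3 to 56 and Mcm10 on 10 to 145. Gins1, a subunit of the GINS complex, rested on 0 to 21 reads, its 0 in untreated replicate 1 allowing a normalized count of up to 5.13, and did not pass the filter on low counts, so 30 of the 31 genes were tested.

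**Figure D1:**
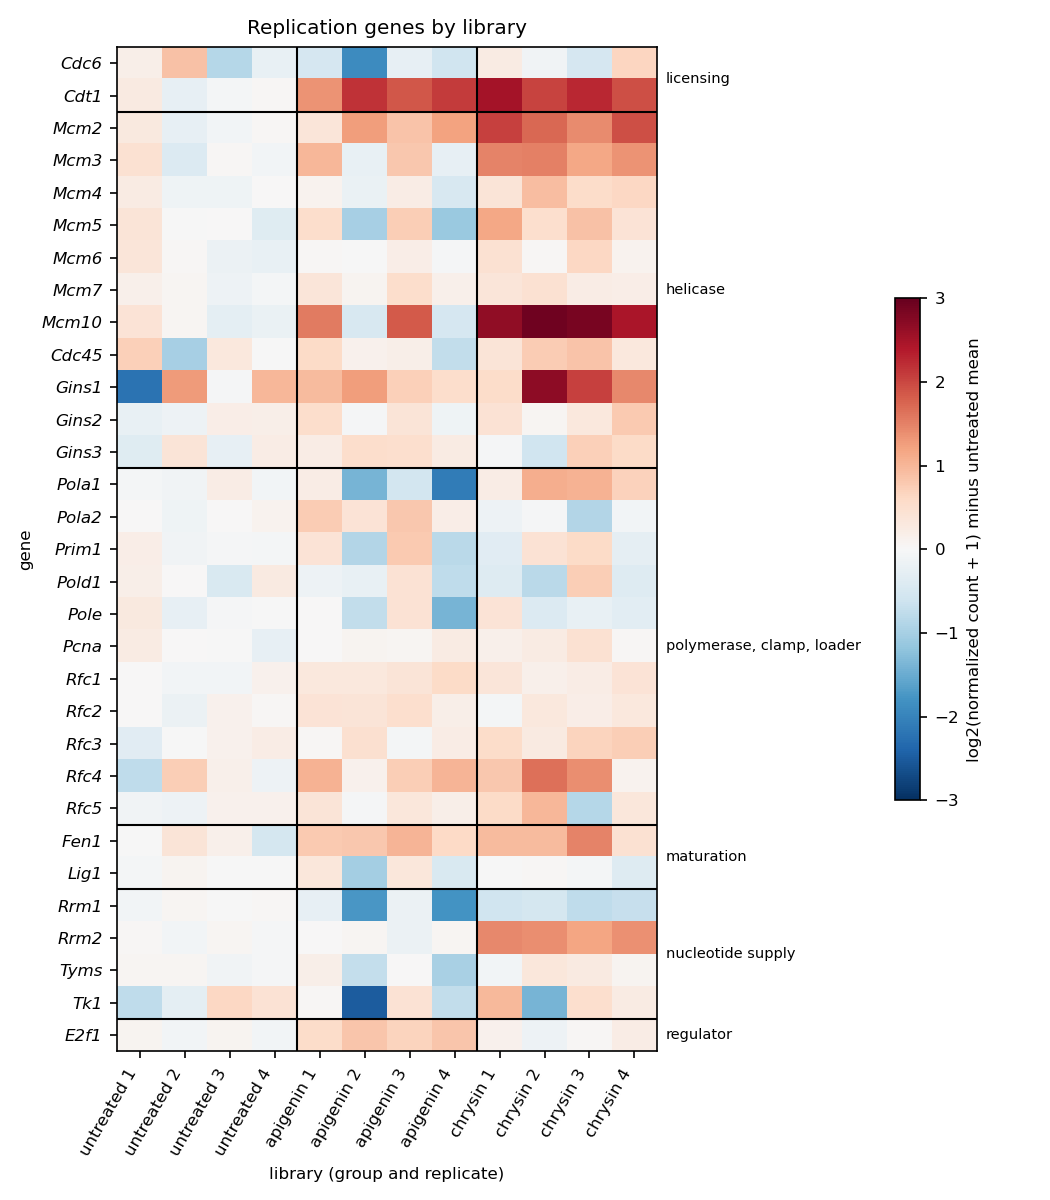
Log2 level of each of the 31 genes (rows, by role) in each of the 12 libraries (columns), as the difference from the mean of the 4 untreated libraries (colour, red higher and blue lower, from -3 to 3). Cdt1 and Mcm10 are the reddest rows under chrysin, and Rrm1, Pola1, Mcm5 and Prim1 are blue in apigenin replicates 2 and 4.

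With chrysin, Cdt1, helicase genes (Mcm2, Mcm3, Mcm4 and Mcm10), clamp loader genes (Rfc1, Rfc3 and Rfc4), Fen1 and Rrm2 rose. Of the 30 genes tested, 10 rose, 0 fell and 20 were not called, a share of 33.3% called against 53% of all genes tested. By direction, 33.3% of the replication genes rose against 26.3% of all genes tested, and 0% fell against 26.7%. Their median log2 difference was 0.30, against -0.03 over all genes tested. In 11 genes all 4 chrysin libraries lay above all 4 untreated libraries (25.7% of all genes tested), and in 1 gene, Rrm1, all 4 lay below (25.7%). With apigenin 7 genes (Cdt1, Mcm2, Pola2, Rfc1, Rfc2, Fen1 and E2f1) rose, 2 (Pola1 and Rrm1) fell and 21 were not called, a share of 30% called against 46.2% of all genes tested. The 7 that rose make up 23.3% of the replication genes (23% of all genes tested), and the 2 that fell 6.67% (23.2% of all genes tested). The median log2 difference with apigenin was 0.14, against 0.01 over all genes tested, and all 4 apigenin libraries lay above the untreated ones in 7 genes (22.2%) and below in 1 (22.8%). Without untreated replicate 4, the apigenin count was 5 higher and 0 lower. Over all genes tested, fewer were also called in each direction in that fit, so the drop is not particular to the replication genes. Both flavones were set against the same 4 untreated libraries, so the counts of one are not independent of those of the other. The labels do not tie the 4 libraries of a group to separate cultures, and the p-values therefore cover the spread among these libraries alone, which may be technical.

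**Figure D2:**
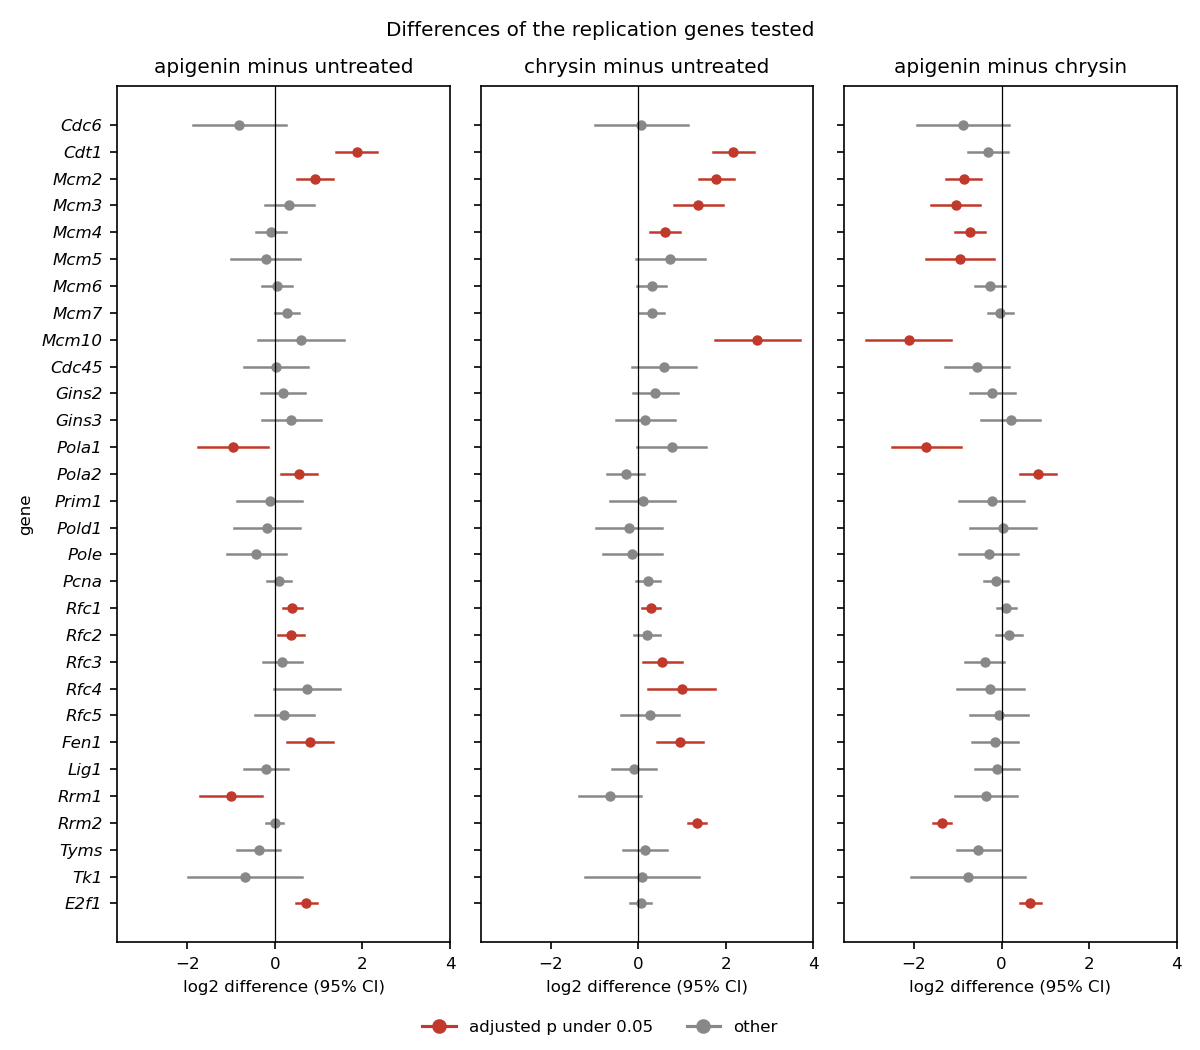
Log2 difference of each of the 30 genes tested, with its 95% confidence interval (horizontal axis), for apigenin minus untreated, chrysin minus untreated and apigenin minus chrysin (panels). Red marks the 9, 10 and 9 genes called at an adjusted p under 0.05 in the 3 panels, and in the chrysin panel every red point lies to the right of 0.

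Of the licensing factors, Cdt1 rose with both flavones and Cdc6 was not called. Cdt1, which brings the MCM ring to origins (chr8:125091915-125097028, plus strand in mm9), measured 5.27, 4.75, 4.94 and 5.04 in untreated replicates 1 to 4, 6.35, 7.16, 6.86 and 7.09 in apigenin replicates 1 to 4 and 7.49, 7.02, 7.26 and 6.93 in chrysin replicates 1 to 4. Every treated library lay above every untreated one, while the ranges of the flavones overlapped. Cdt1 rose by 1.87 ± 0.22 (adjusted p = 3.4e-06) on the log2 scale with apigenin, 3.65-fold, and by 2.18 ± 0.22 (adjusted p = 5.54e-07) with chrysin, 4.52-fold. Apigenin minus chrysin for Cdt1 was -0.31 (95% interval -0.77 to 0.15, adjusted p = 0.252) and was not called. Cdc6, the loading factor that acts beside Cdt1, measured 4.03, 4.75, 3.01 and 3.64 in untreated, 3.36, 1.96, 3.61 and 3.27 in apigenin and 4.10, 3.75, 3.35 and 4.51 in chrysin libraries. The 3 groups overlapped, and the difference was -0.81 (95% interval -1.87 to 0.25, adjusted p = 0.197) with apigenin and 0.07 (95% interval -0.99 to 1.13, adjusted p = 0.915) with chrysin.

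Among the 10 helicase genes tested, 4 rose with chrysin (40%, against 26.3% of all genes tested) and 1 with apigenin (10%, against 23%). Mcm2, a subunit of the MCM ring (chr6:88833469-88848774, minus strand in mm9), measured 7.21, 6.68, 6.85 and 6.95 in untreated, 7.28, 8.17, 7.78 and 8.12 in apigenin and 8.97, 8.65, 8.35 and 8.85 in chrysin libraries, each in replicate order. All chrysin libraries stood above all apigenin libraries, and these above all untreated libraries, with apigenin replicate 1 at 7.28 close to untreated replicate 1 at 7.21. The rise in Mcm2 was 0.92 ± 0.19 (adjusted p = 0.000925) with apigenin and 1.78 ± 0.19 (adjusted p = 1.13e-06) with chrysin, and apigenin minus chrysin was -0.87 ± 0.19 (adjusted p = 0.00127). Mcm10, which helps the helicase to start (chr2:4910760-4933837, minus strand in mm9), showed the largest chrysin rise of the 30 genes. It measured 4.31, 3.97, 3.62 and 3.71 in untreated, 5.45, 3.41, 5.74 and 3.40 in apigenin and 6.57, 6.83, 6.74 and 6.35 in chrysin libraries. The chrysin libraries lay together above all others, whereas apigenin replicates 1 and 3 lay above the untreated range and replicates 2 and 4 below it. Mcm10 rose by 2.72 ± 0.46 (adjusted p = 0.000119) with chrysin, 6.58-fold, and was not called with apigenin, at 0.60 (95% interval -0.37 to 1.57, adjusted p = 0.303). In apigenin minus chrysin it came to -2.12 ± 0.46 (adjusted p = 0.00112).

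Mcm3 and Mcm4, further subunits of the ring, also rose with chrysin. Mcm3 measured 6.91, 6.06, 6.50 and 6.39 in untreated, 7.47, 6.23, 7.26 and 6.22 in apigenin and 7.96, 7.97, 7.64 and 7.80 in chrysin libraries. Chrysin did not overlap the other groups in Mcm3, and the rise was 1.38 ± 0.26 (adjusted p = 0.000374), against 0.33 (95% interval -0.23 to 0.89, adjusted p = 0.319) with apigenin. Mcm4 measured 8.25, 7.85, 7.86 and 7.99 in untreated, 8.09, 7.78, 8.21 and 7.50 in apigenin and 8.38, 8.91, 8.54 and 8.60 in chrysin libraries, and rose by 0.62 ± 0.16 (adjusted p = 0.00395) with chrysin. Its chrysin libraries lay above all others, while the apigenin and untreated ranges overlapped. With apigenin Mcm4 was not called, at -0.09 (95% interval -0.43 to 0.25, adjusted p = 0.659), and apigenin minus chrysin was -1.05 ± 0.26 (adjusted p = 0.0036) for Mcm3 and -0.71 ± 0.16 (adjusted p = 0.00152) for Mcm4.

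The other ring subunits, Mcm5, Mcm6 and Mcm7, were called in neither comparison with untreated cells. Mcm5 measured 6.79, 6.39, 6.42 and 6.04 in untreated, 6.93, 5.41, 7.15 and 5.30 in apigenin and 7.57, 6.90, 7.28 and 6.82 in chrysin libraries. All chrysin libraries lay above the untreated ones, and the apigenin libraries lay on both sides of them, replicates 1 and 3 above and replicates 2 and 4 below. Apigenin minus chrysin for Mcm5 was -0.95 ± 0.37 (adjusted p = 0.0434), a call that ended when any of untreated replicates 2, 3 and 4, apigenin replicates 2 and 4 or chrysin replicates 1, 2 and 3 was left out (adjusted p = 0.0504 to 0.128). The chrysin difference was 0.74 (95% interval -0.05 to 1.52, adjusted p = 0.107) for Mcm5, 0.30 (95% interval -0.04 to 0.64, adjusted p = 0.123) for Mcm6 and 0.31 (95% interval 0.03 to 0.59, adjusted p = 0.0617) for Mcm7. When the 8 chrysin and untreated samples were fitted alone, Mcm5 (adjusted p = 0.00407) and Mcm7 (adjusted p = 0.0472) were called higher with chrysin. Without untreated replicate 1, Mcm6 and Mcm7 were called with chrysin, at 0.43 (adjusted p = 0.0376) and 0.36 (adjusted p = 0.0482). Cdc45, Gins2 and Gins3, the partners that switch the ring on, were not called in any comparison of the deposited values. Their log2 differences from untreated were 0.03, 0.19 and 0.37 with apigenin and 0.58, 0.39 and 0.16 with chrysin. Gins2 shares 2758 exon bases with Gse1 on the opposite strand, and no source used here gives the strand setting of the counting, so its level is uncertain.

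**Figure D3:**
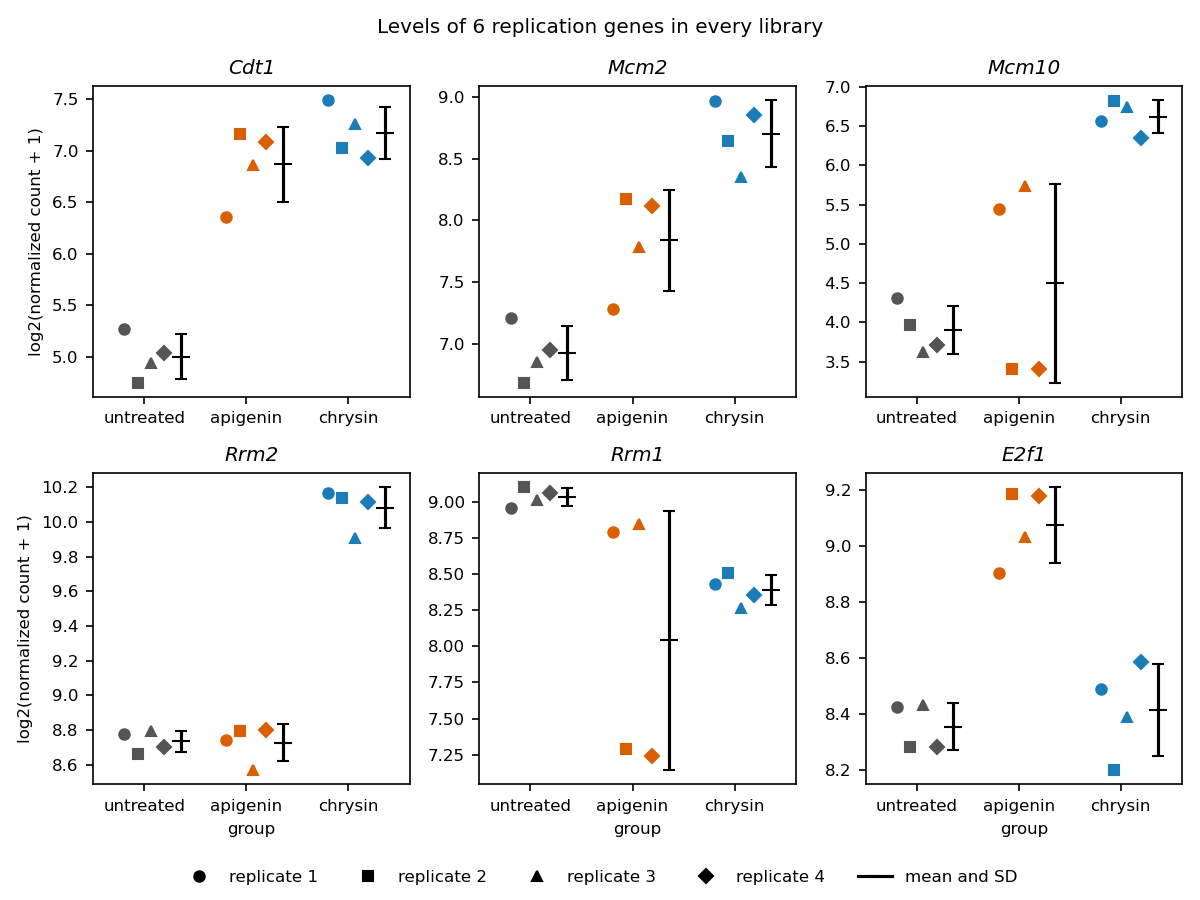
Log2 level (vertical axes, each with its own scale) of Cdt1, Mcm2, Mcm10, Rrm2, Rrm1 and E2f1 in each library by group, with marker shape for the replicate and a black bar for the mean and SD of 4 libraries. Rrm2 in apigenin overlaps the untreated range, and Mcm10 and Rrm1 in apigenin split into replicates 1 and 3 above and replicates 2 and 4 below.

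Of the 11 polymerase, clamp and loader genes, 3 rose with chrysin (27.3%, near the 26.3% of all genes tested), while with apigenin 3 rose (27.3%, near the 23% of all genes tested) and 1 fell (9.09%, against 23.2%). Pola1, the catalytic subunit of polymerase alpha, measured 6.08, 6.02, 6.36 and 6.06 in untreated, 6.35, 4.73, 5.59 and 4.03 in apigenin and 6.36, 7.22, 7.18 and 6.82 in chrysin libraries. Apigenin replicates 2, 3 and 4 lay below the untreated range, and apigenin replicate 1 and chrysin replicate 1 within it. Pola1 fell by 0.95 ± 0.37 (adjusted p = 0.047) with apigenin, and the call ended without any 1 of the 4 untreated libraries, without apigenin replicate 2 or 4, or without chrysin replicate 2, 3 or 4 (adjusted p = 0.0567 to 0.159). With chrysin it came to 0.77 (95% interval -0.03 to 1.56, adjusted p = 0.0967), called with the 8 chrysin and untreated samples alone (adjusted p = 0.00383) and without apigenin replicate 1 (adjusted p = 0.0349) or 4 (adjusted p = 0.0331), and apigenin minus chrysin was -1.72 ± 0.37 (adjusted p = 0.00123). Pola2, the accessory subunit of the same enzyme, was called higher with apigenin and measured 6.97, 6.84, 6.98 and 7.07 in untreated, 7.74, 7.38, 7.78 and 7.17 in apigenin and 6.81, 6.93, 6.10 and 6.88 in chrysin libraries. All apigenin libraries stood above all others in Pola2, and chrysin replicate 3 stood lowest. The rise with apigenin was 0.55 ± 0.20 (adjusted p = 0.0308), a call that ended without untreated replicate 1, 2 or 3 or apigenin replicate 1 or 3 (adjusted p = 0.0561 to 0.0853), and apigenin minus chrysin was 0.83 ± 0.20 (adjusted p = 0.00215). With chrysin Pola2 was not called, at -0.28 (95% interval -0.70 to 0.13, adjusted p = 0.239). Prim1, the primase subunit, was not called in any comparison of all 12 samples. It ranged from 4.81 to 6.49 across apigenin libraries, against 5.60 to 5.89 in untreated ones. Pold1 and Pole, the catalytic subunits of polymerases delta and epsilon, were not called either with all 12 samples at equal weights. Pole ranged from 4.89 to 6.71 with apigenin and 6.04 to 6.57 in untreated libraries.

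Pcna, the sliding clamp and a common marker of dividing cells, was not called in any comparison. It measured 8.39, 8.16, 8.13 and 7.91 in untreated, 8.15, 8.23, 8.21 and 8.38 in apigenin and 8.30, 8.40, 8.60 and 8.19 in chrysin libraries, with all groups overlapping. Its difference was 0.10 (95% interval -0.17 to 0.37, adjusted p = 0.543) with apigenin and 0.23 (95% interval -0.04 to 0.50, adjusted p = 0.146) with chrysin, and pseudogenes of Pcna (Pcna-ps1 and Pcna-ps2) make its level uncertain where reads are shared. Rfc1, the large subunit of the clamp loader, measured 8.91, 8.82, 8.81 and 9.03 in untreated, 9.22, 9.22, 9.28 and 9.47 in apigenin and 9.26, 9.05, 9.13 and 9.29 in chrysin libraries. Each treated library lay above each untreated one in Rfc1, which rose by 0.40 ± 0.10 (adjusted p = 0.00364) with apigenin and by 0.29 ± 0.10 (adjusted p = 0.0231) with chrysin. The chrysin call ended without untreated replicate 2 or 3 or chrysin replicate 1 or 4 (adjusted p = 0.0515 to 0.0705). Rfc4, a small subunit of the loader, measured 4.31, 5.81, 5.21 and 4.92 in untreated, 6.11, 5.20, 5.80 and 6.09 in apigenin and 5.87, 6.71, 6.47 and 5.18 in chrysin libraries, with overlapping groups. It rose by 1.00 ± 0.36 (adjusted p = 0.0281) with chrysin, a call that ended without untreated replicate 1 or 4 or chrysin replicate 2 or 3 (adjusted p = 0.0637 to 0.103), and came to 0.74 (95% interval -0.03 to 1.50, adjusted p = 0.106) with apigenin, called without untreated replicate 2 (adjusted p = 0.0457). Of the other small subunits, Rfc2 rose by 0.37 ± 0.14 (adjusted p = 0.0419) with apigenin, but not without any 1 of the untreated libraries or apigenin replicates 1 to 3 (adjusted p = 0.0512 to 0.123). Rfc3 rose by 0.55 ± 0.21 (adjusted p = 0.0358) with chrysin, but not without untreated replicates 1, 2 or 3 or chrysin replicates 1, 3 or 4 (adjusted p = 0.0501 to 0.103). Rfc5 was not called, with a chrysin difference of 0.27 (95% interval -0.40 to 0.94, adjusted p = 0.494) that became 0.64 (adjusted p = 0.0377) without chrysin replicate 3.

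Of the maturation genes, Fen1, the flap endonuclease, rose with both flavones. It measured 5.51, 5.92, 5.68 and 5.01 in untreated, 6.31, 6.35, 6.55 and 6.13 in apigenin and 6.47, 6.47, 7.02 and 5.98 in chrysin libraries. Every treated library lay above every untreated one in Fen1, by 0.81 ± 0.25 (adjusted p = 0.0135) with apigenin and 0.96 ± 0.25 (adjusted p = 0.00389) with chrysin. Without untreated replicate 4, the apigenin difference was 0.63 (adjusted p = 0.0549), and 1909 exon bases of Fen1 are shared with a gene on the opposite strand, so its level is uncertain. Lig1, the ligase that seals the fragments, measured 7.40, 7.53, 7.43 and 7.43 in untreated, 7.79, 6.42, 7.79 and 6.99 in apigenin and 7.44, 7.49, 7.39 and 7.06 in chrysin libraries. The untreated libraries of Lig1 lay within 0.14 of each other, while apigenin replicates 1 and 3 stood above them and replicates 2 and 4 below. Its difference was -0.20 (95% interval -0.71 to 0.31, adjusted p = 0.52) with apigenin and -0.10 (95% interval -0.61 to 0.41, adjusted p = 0.744) with chrysin.

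The subunits of ribonucleotide reductase, the enzyme that makes deoxyribonucleotides, held the calls among the 4 nucleotide supply genes. Rrm2, the small subunit (chr12:25393106-25399011, plus strand in mm9), measured 8.78, 8.66, 8.80 and 8.71 in untreated, 8.75, 8.80, 8.57 and 8.80 in apigenin and 10.17, 10.14, 9.91 and 10.12 in chrysin libraries. All chrysin libraries stood above all others by more than 1 log2 unit, and the apigenin and untreated ranges overlapped. Rrm2 rose by 1.35 ± 0.10 (adjusted p = 1.36e-08) with chrysin, 2.54-fold, and was not called with apigenin, at -0.01 (95% interval -0.21 to 0.20, adjusted p = 0.96). The difference between the flavones, apigenin minus chrysin, was -1.35 ± 0.10 (adjusted p = 1.46e-08). Rrm1, the large subunit (chr7:109590209-109618285, plus strand in mm9), measured 8.96, 9.10, 9.01 and 9.06 in untreated, 8.79, 7.29, 8.85 and 7.24 in apigenin and 8.43, 8.51, 8.27 and 8.35 in chrysin libraries. Every treated library lay below every untreated one in Rrm1, and apigenin replicates 2 and 4 lay below all chrysin libraries while replicates 1 and 3 lay above them. Rrm1 fell by 0.99 ± 0.33 (adjusted p = 0.0251) with apigenin, and the call ended without untreated replicate 2 or 4 or apigenin replicate 2 or 4 (adjusted p = 0.0517 to 0.0728). With chrysin it came to -0.64 (95% interval -1.35 to 0.06, adjusted p = 0.115) where the spread was shared with the apigenin libraries, and the same difference of -0.64 was called (adjusted p = 1.49e-05) when the 8 chrysin and untreated samples were fitted alone.

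Tyms and Tk1, which make thymidine nucleotides by separate routes, were not called in any equally weighted comparison of the 12 samples' deposited values. Under quantile normalization Tyms was called lower in apigenin against chrysin (adjusted p = 0.0242). Tyms measured 6.60, 6.59, 6.43 and 6.49 in untreated, 6.71, 5.82, 6.55 and 5.55 in apigenin and 6.45, 6.88, 6.80 and 6.62 in chrysin libraries. Apigenin replicates 2 and 4 lay below the untreated range in Tyms, and its apigenin minus chrysin difference of -0.53 (95% interval -1.02 to -0.03, adjusted p = 0.0725) was called without apigenin replicate 1 (-0.71, adjusted p = 0.0177) or 3 (-0.66, adjusted p = 0.0379). With array weights both genes were called lower with apigenin, Tyms at -0.54 (adjusted p = 0.0295) and Tk1 at -1.31 (adjusted p = 0.0443). Tk1 measured 3.49, 3.97, 4.87 and 4.69 in untreated, 4.28, 1.77, 4.68 and 3.53 in apigenin and 5.22, 2.86, 4.76 and 4.51 in chrysin libraries. The lowest Tk1 levels, in apigenin replicate 2 and chrysin replicate 2, rested on 5 and 3 reads. Its difference was -0.69 (95% interval -1.99 to 0.61, adjusted p = 0.376) with apigenin and 0.08 (95% interval -1.22 to 1.38, adjusted p = 0.922) with chrysin.

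E2f1, the regulator of the list, rose with apigenin and was not called with chrysin. It (chr2:154385143-154395628, minus strand in mm9) measured 8.43, 8.28, 8.43 and 8.28 in untreated, 8.90, 9.19, 9.03 and 9.18 in apigenin and 8.49, 8.20, 8.39 and 8.59 in chrysin libraries. All apigenin libraries stood above all others, and the chrysin and untreated ranges overlapped. E2f1 rose by 0.72 ± 0.11 (adjusted p = 6.93e-05) with apigenin, 1.65-fold, and came to 0.06 (95% interval -0.18 to 0.30, adjusted p = 0.678) with chrysin. The flavones differed by 0.66 ± 0.11 (adjusted p = 0.000141), and this call and the apigenin call held without each single library.

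Set side by side at the same dose and time, apigenin and chrysin form 1 pair of compounds, compared over all genes. Apigenin stood higher than chrysin in 2 of the 30 genes, E2f1 and Pola2, and lower in 7, Mcm2, Mcm3, Mcm4, Mcm5, Mcm10, Pola1 and Rrm2, with 21 not called. That is 30% called against 50.7% of all genes tested, 6.67% higher against 24.7% and 23.3% lower against 26.1%. The median log2 difference was -0.28, against 0.01 over all genes tested, and the groups did not overlap in 2 genes with apigenin above (19.5% of all genes tested) and 6 with apigenin below (21.5%). By role, the helicase genes held 5 of the 7 lower calls, which is 50% of the 10 tested, against 26.1% of all genes tested. The licensing and maturation genes held none, and there the intervals of the difference reached from -1.94 to 0.18 for Cdc6, from -0.77 to 0.15 for Cdt1, from -0.67 to 0.38 for Fen1 and from -0.61 to 0.41 for Lig1. With apigenin replicates 2 and 4 alone against chrysin, the counts became 2 higher and 13 lower, where 24.8% and 27.4% of all genes tested were called. This pair was chosen on these same libraries, so these counts describe the libraries and are no test.

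The apigenin libraries did not move as 1 group. Of the 30 genes, apigenin replicate 1 held 17 above and 1 below the untreated range, replicate 2 held 10 above and 11 below, replicate 3 held 18 above and 3 below, and replicate 4 held 11 above and 10 below. Over all genes tested the shares were 37%, 40.3%, 36.9% and 40.4% above and 35.5%, 39.8%, 35.7% and 39.5% below. Chrysin replicates 1 to 4 held 18, 19, 22 and 18 genes above and 3, 6, 4 and 4 below, where all genes tested gave 37.7%, 39.6%, 39.4% and 38.9% above and 39.3%, 40%, 39.6% and 40.2% below. In 20 of the 30 genes apigenin replicates 1 and 3 both stood above replicates 2 and 4, an order found in 34.1% of all genes tested, and in 6 (E2f1, Mcm2, Pcna, Rrm2, Cdt1 and Rfc3) the order was the reverse, found in 34.6%. Apigenin replicates 1 to 4 held 6651676, 15512633, 10013186 and 7899624 reads, and the part of depth in this order was not tested.

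The widest spreads among the apigenin libraries were those of Tk1 (2.91 log2 units), Mcm10 (2.33), Pola1 (2.33), Mcm5 (1.86), Pole (1.82) and Prim1 (1.69). Rrm1 spread over 1.61 log2 units with apigenin and 0.14 without treatment. The median range over the 30 genes was 0.85 in apigenin, 0.50 in untreated and 0.57 in chrysin libraries, against 0.53, 0.34 and 0.49 over all genes tested. Mcm6, Rrm2, Pcna, Rfc1 and E2f1 kept within 0.23 to 0.28 log2 units across the apigenin libraries.

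By role, the nucleotide supply genes differed most between apigenin libraries: their mean lay -0.01, -1.22, 0.02 and -0.86 from the untreated mean in replicates 1 to 4. This mean is over 4 genes and includes Tk1, on 5 reads in replicate 2 and 11 in replicate 4. In both replicates Rrm1, Tyms and Tk1 lay below their untreated means, and Rrm2 lay slightly above its own (8.80 in each, against 8.74). The helicase genes lay at 0.52, 0.00, 0.62 and -0.16, and the polymerase, clamp and loader genes at 0.32, -0.13, 0.36 and -0.22. Under chrysin the helicase means lay at 0.83 to 0.96 in every library. The nucleotide supply mean lay at 0.43, -0.04, 0.29 and 0.26 under chrysin, with Tk1 on 3 reads in replicate 2.

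**Figure D4:**
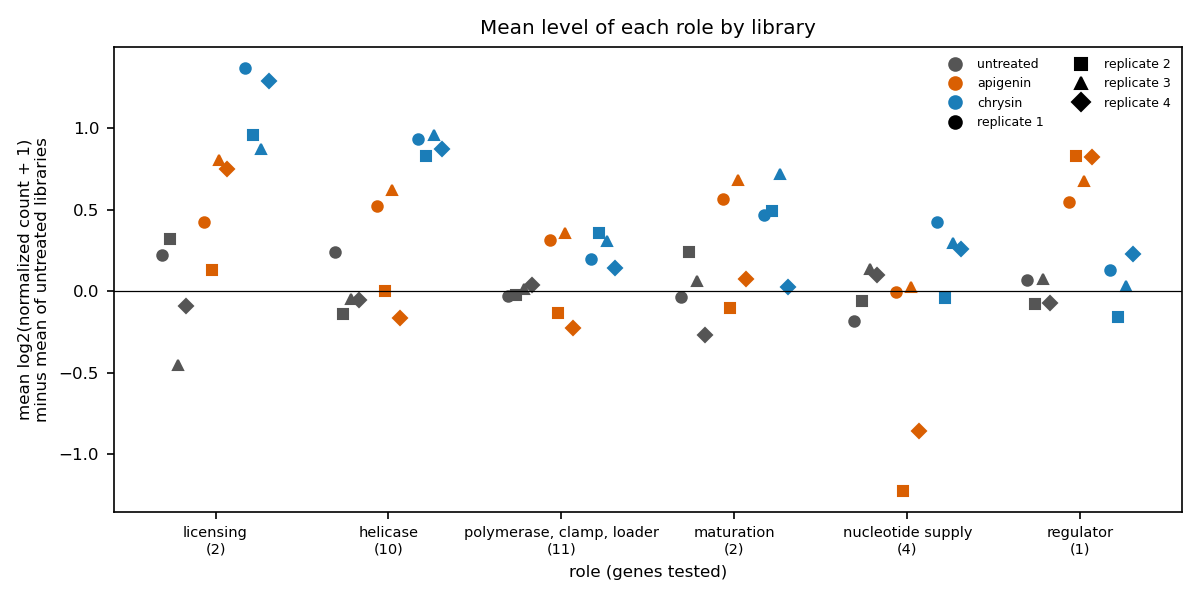
Mean log2 level of the genes of each role (horizontal axis, number of genes tested in brackets) in each library, minus the mean of the 4 untreated libraries (vertical axis), with colour for the group and marker shape for the replicate. The 4 chrysin libraries lie together at 0.83 to 0.96 in the helicase role, and apigenin replicates 2 and 4 lie at -1.22 and -0.86 in nucleotide supply. The nucleotide supply mean includes Tk1, on 5 reads in apigenin replicate 2 and 3 in chrysin replicate 2.

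Since earlier work on these data had set apigenin replicates 1 and 3 apart from replicates 2 and 4, each pair was also fitted alone against the untreated libraries. These pairs are not groups of the study, and since they were chosen on these same libraries, passing the threshold in them describes the libraries and is no test. With replicates 1 and 3, 11 of the 30 genes passed it higher and 0 lower, against 16.6% higher and 18.9% lower over all genes tested. With replicates 2 and 4, 4 passed it higher (Cdt1, E2f1, Mcm2 and Rfc1) and 8 lower (Lig1, Mcm5, Pola1, Pole, Prim1, Rrm1, Tk1 and Tyms), against 27.3% higher and 27.6% lower. Cdt1, E2f1, Mcm2 and Rfc1 passed it higher in both fits. With replicates 1 and 3, the log2 difference from untreated was -0.22 for Rrm1 and 1.69 for Mcm10. Mcm5 lay at 0.63 with replicates 1 and 3 and at -1.06 with replicates 2 and 4.

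Of 61 other genes of the replication pathway, 59 passed the filter. With chrysin 28 rose and 2 fell, which is 47.5% and 3.39% of the 59, against 26.3% and 26.7% of all genes tested, and their median log2 difference was 0.48. With apigenin 14 rose and 7 fell, which is 23.7% and 11.9%, against 23% and 23.2%, with a median of 0.16. Apigenin stood above chrysin in 4 and below it in 23 of the 59 (6.78% and 39.0%, against 24.7% and 26.1%). The smallest chrysin p-values were those of Dbf4, the activator of the origin-firing kinase, which rose by 1.73 ± 0.15 (adjusted p = 9.75e-08), Orc1, a subunit of the origin recognition complex, which rose by 3.49 ± 0.34 (adjusted p = 4.29e-07), and Slbp, the histone stem-loop binding protein, which rose by 1.33 ± 0.15 (adjusted p = 1.27e-06). With apigenin they were those of Samhd1, an enzyme that breaks down deoxyribonucleotides, which fell by 1.54 ± 0.12 (adjusted p = 3.33e-08), Orc4, another origin recognition subunit, which fell by 0.75 ± 0.13 (adjusted p = 0.000154), and Dut, which removes dUTP, which rose by 0.81 ± 0.16 (adjusted p = 0.000596). Orc4 rose with chrysin, by 0.59 ± 0.13 (adjusted p = 0.00102), and apigenin minus chrysin was -1.34 ± 0.13 (adjusted p = 3.2e-07). The 11 firing factors held 7 higher and 1 lower call with chrysin (63.6% and 9.09%), against 26.3% and 26.7% of all genes tested. With apigenin the firing factors held 5 higher and 2 lower calls (45.5% and 18.2%, against 23% and 23.2%). The 13 fork genes held 6 higher calls with chrysin (46.2%) and 1 with apigenin (7.69%), and no lower call with either. The 7 licensing genes of this list held 4 higher and 1 lower call with chrysin (57.1% and 14.3%). With apigenin these 7 held 2 higher and 2 lower calls (28.6% each).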

How the data were processed

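RNA sequencing libraries of 12 samples, 4 per group, were analysed from 1 deposited table. The authors deposited log2 values, which the values show to be log2 of a normalized count plus 1. Per the labels' protocols a stranded mRNA kit was used, and the tools were STAR, HTSeq, DESeq2, cutadapt and FastQC on mm9, per the submitters' processing notes. No source used here gives their versions, the annotation or the strand setting. Whole reads were recovered from the steps of the normalized counts, with 99.966% to 100.0% of values under 500 reads within 0.05 of a whole number.

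The 31 genes, their roles, the list of other pathway genes and the rules for naming genes were chosen with earlier results of these data known. All 31 genes are named. Values in every library are given for E2f1, Pcna and up to 4 genes per role with the smallest adjusted p in any comparison. Mcm5, whose apigenin libraries lie far apart, was added. Of 24458 genes, the 12198 averaging 10 or more normalized counts were tested in limma (3.58.1, under R 4.3.3). The fit had a mean for each group, all 12 samples, trend and robust estimation, two-sided tests and Benjamini-Hochberg adjustment over the genes tested. The procedure was tested on simulated data. Log2 differences understate changes of genes with few reads. Exon lengths and overlaps came from GENCODE vM1 on mm9, and promoters from RefSeq on GRCm38.p6. Alternatives were a replicate block, quantile normalization, centring, 2 other filters, pseudocounts of 0.25 and 4, other variance models, limma-voom on recovered reads, the 8 samples compared alone, and leaving out libraries.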

Additional observations from a re-analysis of the deposited data

Results flagged for a closer look

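Pola2 in the chrysin group had 1 library far from the others. Chrysin replicate 3 stood at 6.10, against 6.81, 6.88 and 6.93 in the other chrysin libraries, so its gap to the nearest was 0.863 of the group's whole range, above the limit for 4 samples. Of 93 groups examined (31 genes in 3 groups), 1 stood out in this way, and chance alone marks about 1 in 20 groups.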

How the results depend on the processing

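The count of replication genes called for apigenin against untreated was 9. It ranged from 5 to 9 when 1 library was left out, with 5 without untreated replicate 4. For apigenin against chrysin the count was 9 (8 to 10 without 1 library). It became 15 with apigenin replicates 2 and 4 only, a pair chosen on these same libraries, so that count is no test. The chrysin count was 10 (8 to 11 without 1 library), 14 (13 higher and 1 lower) with the 8 samples alone or with either pair of apigenin libraries, and 15 with array weights. The shares of all genes called with chrysin in the fits that gave 14 and 15 are not given here. These gains are therefore not a result about the replication genes. Leaving out 1 library moved the counts of the other pathway genes over 15 to 25, 26 to 30 and 22 to 28, and those of all genes over 4782 to 5860, 5765 to 6643 and 5438 to 6151. With apigenin replicates 1 and 3 only, Mcm5 turned to 0.63 against untreated, and Lig1 and Rrm1 to 0.44 and 0.43 against chrysin. The cause was not tested. For apigenin against untreated, array weights gave 6 higher and 5 lower (Pola1, Pole, Rrm1, Tk1 and Tyms), and quantile normalization 7 higher and 1 lower. Over all genes tested, array weights also called more genes in each direction than equal weights did. The gain in lower calls is therefore not a result about the replication genes. Quantile normalization called more of all genes higher and fewer lower than the deposited values did. Besides the losses given with the genes, the apigenin call of Pola1 ended under quantile normalization, without the filter, without trend and robust estimation and with the 8 samples alone (adjusted p = 0.0592 to 0.0854), and that of Rfc2 under centring, array weights, no filter and the replicate block (0.0508 to 0.0676). The chrysin call of Rfc1 ended under quantile normalization (0.0915), that of Rfc4 under limma-voom (0.055) and that of Rfc3 under the replicate block (0.0525). Calls were gained with chrysin for Mcm5 under the replicate block (0.0251), array weights (0.0254) and limma-voom (0.048), Mcm6 under array weights (0.0399) and limma-voom (0.0368), Mcm7 under array weights (0.0153) and without trend and robust estimation (0.046), Pola1 under quantile normalization (0.0435) and array weights (0.0364), Gins2 under quantile normalization (0.0277), and Rrm1, lower, under array weights (0.0274). With apigenin Pole was called lower under array weights (0.046), and in apigenin against chrysin Tyms under quantile normalization (0.0242) and array weights (0.0187) and Rfc3 under quantile normalization (0.0336), both lower. The apigenin against chrysin call of Mcm5 ended without the filter, without trend and robust estimation and with the 8 samples alone (0.0572 to 0.079). Of 2232 values of single genes under an alternative, 52 became called, 69 lost their call and 3 turned around with a call. Another 73 changed sign while called in neither setting. Deviations from the group means correlated at r from -0.096 to 0.102 in 12 same-numbered pairs of samples. In 36 differently numbered pairs r ran from -0.129 to 0.131. These correlations cannot tell whether the numbers mark a shared culture or day, which the labels do not say. With a replicate block the replication gene counts were 8, 10 and 9 for apigenin and chrysin against untreated and apigenin against chrysin. Few reads limit Cdc6, Tk1, Mcm10 and Gins1.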
